A study of Homo sapiens with 4 samples.

Results

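FGFBP1, a secreted carrier of fibroblast growth factors (FGFs), was described together with the ligands FGF2 and FGF19, the receptors FGFR1, FGFR2, FGFR3 and FGFR4, and the docking adaptor FRS2. These 8 genes were taken by name from the 58735 genes of an RNA-seq table, and the set had been put together with values of this table in view. All 8 had a mean level of at least 1 FPKM over the libraries (fragments per kilobase of gene, scaled to the size of the library), as did 14429 genes in all. The table held 4 libraries of human colorectal cancer lines, 1 each of HCT116 adherent cells, HCT116 spheroids, LOVO adherent cells and LOVO spheroids, all labelled wild type. Adherent cells were untreated and grew in RPMI-1640 medium with serum. Spheroids grew, per the study's methods, on ultralow-attachment plastic in serum-free DMEM/F12 medium with B27, N2, EGF and bFGF. The study names oxaliplatin as the drug under which the spheroids were formed, and the spheroid labels carry a treatment of 1 mg/ml with no drug named. The study gives the dose of that drug in micrograms and not milligrams per ml, so the dose is uncertain. Growth form, medium and drug therefore changed together and cannot be told apart. The bFGF in the spheroid medium is recombinant FGF2 protein, which RNA-seq does not see. Each condition had 1 library, so no difference could be set against replicates and no p-value is given.

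FGFs signal through receptor tyrosine kinases at the cell surface, and most of them need heparan sulfate, a sulfated sugar chain on proteoglycans, to bind their receptors. The same chains hold secreted FGFs in the extracellular matrix, and FGFBP1 binds such stored FGFs, FGF2 among them, and releases them in a soluble and active form. Activated receptors phosphorylate FRS2, which links them to the RAS-ERK cascade. That cascade then switches on its own inhibitors, the Sprouty and DUSP genes. FGF19 acts differently: it is a hormone of the ileum that limits bile acid synthesis in the liver through FGFR4 and the co-receptor KLB (beta-klotho).

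The FGFBP1 gene spans positions 15935569 to 15938740 of chromosome 4 (GRCh38, minus strand), with 1 annotated transcript of 1359 exonic bases that overlap no exon of another gene. Its promoter is shown because FGFBP1 had, on the log2(FPKM + 1) scale, the largest difference between spheroids and adherent cells of the 8 genes in both lines. The stretch runs from 250 bases before to 50 bases after the gene start (chr4:15938691-15938990 in RefSeq GRCh38.p14, minus strand), and the capitals mark the bases that match the C/EBP motif TTGCNNAA on the opposite strand.
FGFBP1 promoter: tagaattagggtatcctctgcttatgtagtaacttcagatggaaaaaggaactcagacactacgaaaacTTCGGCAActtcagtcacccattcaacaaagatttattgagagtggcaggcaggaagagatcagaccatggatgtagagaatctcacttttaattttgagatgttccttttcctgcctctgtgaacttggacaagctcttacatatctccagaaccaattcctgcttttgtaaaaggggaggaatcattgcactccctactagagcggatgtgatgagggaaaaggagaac
The window was 42.0% G or C, a value at the 14.9th percentile of 35116 RefSeq promoters, and held 3 CpG pairs. The C/EBP motif occurred in 10.5% of all promoters, so its match here is a description only. On either strand the window held no AP-1 motif (TGANTCA, in 7.71% of promoters), no CRE (TGACGTCA, 1.85%), no TATA box (TATAAA, 11.5%), no GC box (GGGCGG, 45.0%), no TEAD motif (GGAATG, 14.0%) and no ETS motif (CCGGAAGT, 4.14%). The promoters of FGF2, FGFR3 and FRS2, the other members with a single RefSeq window, were richer in G and C at 74.7%, 86.3% and 61.0%. FGF2 held 41 CpG pairs in its window, FGFR3 held 51 and FRS2 held 18.

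The reads on genes, recovered from the FPKM values, numbered 15483569 to 20429147 per library. At the floor of 3 reads, a gene of 1 kilobase could be seen from 0.147 to 0.179 FPKM. The libraries labelled LOVO went against the label of a colorectal epithelial line. EPCAM, an epithelial surface protein, was at 85.6 and 79.3 FPKM in adherent cells and spheroids of HCT116 but at 0.93 and 1.50 FPKM in those labelled LOVO. CDH1, which encodes E-cadherin, had 3920 and 3227 reads in HCT116 and 13 and 1 in LOVO, and the intestinal factor CDX2 had 323 and 216 reads in HCT116 and 0 in both LOVO libraries. Of 11 epithelial markers, 9 and 10 exceeded the floor in HCT116 and 6 in each LOVO library, with a summed level of 1288 to 1754 FPKM in HCT116 and 187 to 327 FPKM in LOVO, where KRT8 and KRT18 made up most of it. Of the fibroblast markers, LUM was at 31.4 and 50.4 FPKM and DCN at 10.4 and 9.97 FPKM in the LOVO libraries, against at most 1 read in HCT116. The 7 fibroblast markers summed to 5.61 and 16.1 FPKM in HCT116 and 54.0 and 72.8 FPKM in LOVO, where LUM and DCN made up most of it. Of the 7, 2 and 4 exceeded the floor in HCT116 and 5 in each LOVO library. Of 4 compared on the log2(FPKM + 1) scale in spheroids, 3 were higher in LOVO by more than 1 and 1 was lower. Over all genes compared, 17.7% were higher and 15% lower. The endothelial list summed to 0.306 to 1.13 FPKM except in LOVO spheroids, where it reached 7.84 FPKM through PECAM1, and the leukocyte list to 0.178 to 1.06 FPKM. The part of these cell type markers in the results was not tested, and every value given for LOVO is that of the libraries labelled so. In bulk RNA, fewer cells of a type and less RNA per cell cannot be told apart.

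FGFBP1 was more abundant in spheroids than in adherent cells of both lines. Its level was 2.38 FPKM in HCT116 adherent cells (66 reads), 23.0 FPKM in HCT116 spheroids (525 reads), 16.0 FPKM in LOVO adherent cells (390 reads) and 335 FPKM in LOVO spheroids (9163 reads). LOVO spheroids thus stood far above the other libraries, and HCT116 adherent cells stood lowest. Within HCT116 the spheroid level was 9.65-fold the adherent level (95% counting interval 7.46 to 12.7), and within LOVO it was 20.9-fold (18.9 to 23.2). These intervals come from the reads by the exact Clopper-Pearson method and cover counting error only. On the log2(FPKM + 1) scale, which understates differences of low genes, FGFBP1 differed by 2.83 in HCT116 and by 4.31 in LOVO. Only 3 of the 14429 genes compared had a larger positive difference in HCT116, and 22 had one in LOVO. Ranked by FPKM among these genes, FGFBP1 took place 10599 in HCT116 adherent cells and 1530 in HCT116 spheroids, and places 3428 and 62 in the LOVO pair. The libraries labelled LOVO held more of it than HCT116 in both growth forms, by 6.72-fold (5.16 to 8.86) in adherent cells and by 14.6-fold (13.3 to 15.9) in spheroids. FGFBP1 was chosen with these values known, so they are a description.

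**Figure D1:**
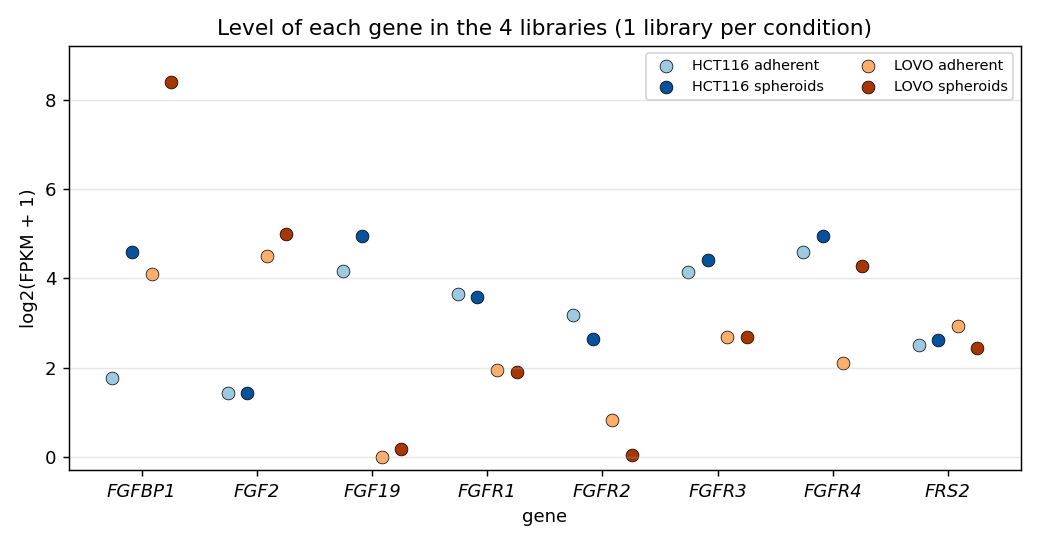
The level of each of the 8 genes (horizontal axis) as log2(FPKM + 1) (vertical axis), with 1 point per library. FGFBP1 reaches 335 FPKM in LOVO spheroids, while FGF19 is high only in HCT116 and FGF2 only in the libraries labelled LOVO.

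Among the 8 genes, 1 differed by more than 1 on the log2(FPKM + 1) scale upward in HCT116 spheroids (FGFBP1) and 0 downward, where 2.19% and 3.33% of all genes compared did so. In LOVO 2 genes did so upward (FGFBP1 and FGFR4) and 0 downward, where 8.57% and 7.85% of all genes did. FGFR2, at -0.78 in LOVO, passed -1 there in 3 of 7 settings of pseudocount and scaling. FGFBP1 was above 2 in both lines, as were 0.0347% of all genes, and nothing is read from these counts because the genes were chosen on the same contrasts. The median difference over all genes compared was -0.03 in HCT116 and -0.06 in LOVO.

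**Figure D2:**
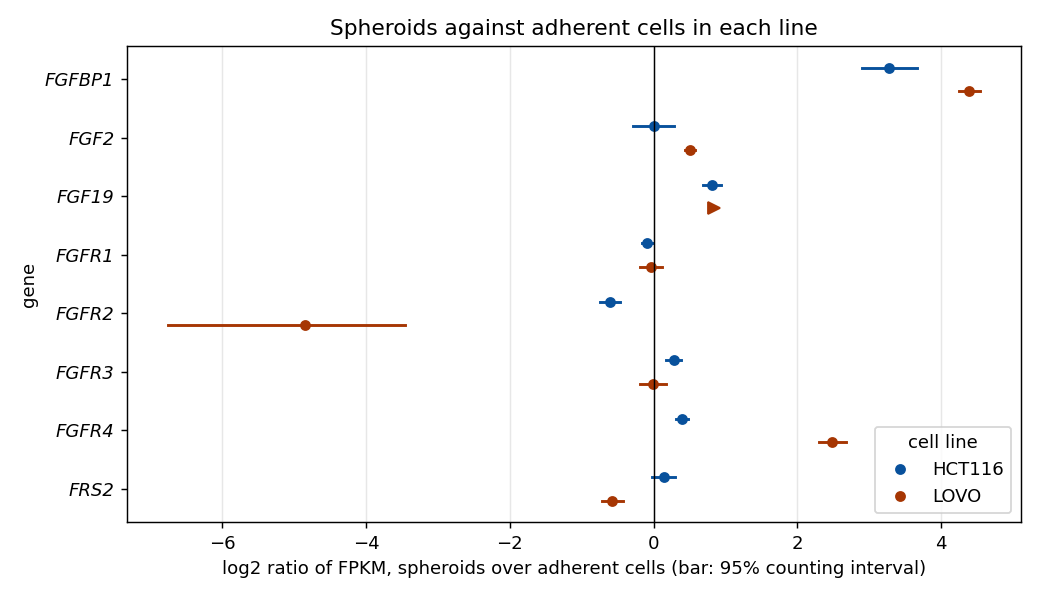
For each of the 8 genes, the log2 ratio of FPKM, spheroids over adherent cells, in HCT116 (blue) and LOVO (brown), with horizontal lines for the 95% counting interval of the ratio of reads. FGFBP1 lies to the right of 0 in both lines, FGFR4 far to the right only in LOVO, and FGFR2 to the left in both; the triangle for FGF19 in LOVO stands at 1.78-fold, the ratio to a floor of 3 reads, since LOVO adherent cells had 0 reads (lower counting limit 1.05-fold).

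The genes beside FGFBP1 on chromosome 4 were low or differed little. Of its 10 nearest protein-coding genes, 5 on each side, the log2(FPKM + 1) difference ran from -0.28 to 0.70 in HCT116 and lay between -0.44 and 0.13 in LOVO. The value of 0.70 belonged to the related gene FGFBP2, which had 0 reads in HCT116 adherent cells, 13 in HCT116 spheroids, 0 in LOVO adherent cells and 2 in LOVO spheroids. From so few reads the value of FGFBP2 depends on the pseudocount: HCT116 spheroids were at least 5.26-fold higher against the floor of 3 reads, with a lower counting limit of 3.70-fold. LDB2, a cofactor of LIM proteins, had 11 and 28 reads in HCT116 and 0 and 1 in LOVO. PROM1, the gene of the surface marker CD133, was among these neighbours, at 4.84 and 5.16 FPKM in HCT116 and 0.03 and 0.05 FPKM in LOVO. FGFBP3, the third carrier of the family, was low at 0.48, 0.44, 1.49 and 1.89 FPKM in HCT116 adherent cells, HCT116 spheroids, LOVO adherent cells and LOVO spheroids. Among the FGFBP genes, FGFBP1 thus had the highest RNA level in each of the 4 libraries.

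No other gene lay close to FGFBP1 by a distance that depends on both the shape and the size of the differences. Likeness was measured as the Euclidean distance between log2(FPKM + 1) values over the 4 libraries, each gene centred on its own mean, and no gene lay within a distance of 1 of FGFBP1. The nearest was SLC6A12, a betaine and GABA transporter, at a distance of 1.40, with 0.10 and 2.09 FPKM in adherent cells and spheroids of HCT116 and 0.49 and 43.0 FPKM in those of LOVO. AC072022.2 followed at 1.47 and ZBED6CL at 1.53. Within 1 of FGF2 lay 188 genes, within 1 of FGFR4 215 and within 1 of FRS2 7780. These counts depend on how large each member's own differences were, so they do not compare likeness of shape.

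The 2 ligands among the members divided by line. FGF2 has no classical secretion signal and leaves cells by an unconventional route. It was at 1.67 FPKM in HCT116 adherent cells (231 reads), 1.68 FPKM in HCT116 spheroids (191 reads), 21.6 FPKM in LOVO adherent cells (2621 reads) and 30.7 FPKM in LOVO spheroids (4186 reads). Both LOVO values lay above both HCT116 values, by 12.9-fold (11.3 to 14.8) in adherent cells and by 18.3-fold (15.8 to 21.3) in spheroids. Between growth forms FGF2 differed less, at 1.00-fold in HCT116 (0.824 to 1.22) and 1.42-fold in LOVO (1.36 to 1.50). The direction in HCT116 changed with the scaling of the libraries, from -0.04 to 0.08 on the log2 scale. The gene lies on the plus strand of chromosome 4 from 122826708 to 122898236, and 804 of its 6775 exonic bases are shared with exons of NUDT6 on the opposite strand. NUDT6 was at 0.91 to 2.49 FPKM, and whether reads were counted by strand is not given in the sources used here.

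FGF19 showed the opposite split. Its level was 16.8 FPKM in HCT116 adherent cells (840 reads) and 29.6 FPKM in HCT116 spheroids (1218 reads), while LOVO adherent cells had 0 reads and LOVO spheroids had 6 reads (0.122 FPKM). In adherent cells HCT116 was at least 246-fold higher, computed against a floor of 3 reads in the LOVO library (lower counting limit 200-fold), and in spheroids the ratio was 243-fold (111 to 664). HCT116 spheroids held 1.76-fold the FGF19 of HCT116 adherent cells (1.61 to 1.92), a difference of 0.78 on the log2(FPKM + 1) scale, which 613 genes exceeded. With LOVO adherent cells set to the same floor, LOVO spheroids were at 1.78-fold, and the lower counting limit of this ratio, which rests on 6 reads, was 1.05-fold. FGF19 lies on the minus strand of chromosome 11 from 69698232 to 69704642 with 1 transcript of 2447 exonic bases.

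The list of 22 FGF ligand genes includes FGF11, FGF12, FGF13 and FGF14, whose products stay inside the cell and are not secreted ligands. Over all 22 genes, 12 exceeded the floor of 3 reads in HCT116 adherent cells, 13 in HCT116 spheroids, 8 in LOVO adherent cells and 13 in LOVO spheroids. FGF4, FGF6, FGF16 and FGF20 exceeded it in no library. FGF19 made up 68.4% and 72.0% of the summed ligand FPKM in adherent cells and spheroids of HCT116. FGF2 made up 72.2% and 87.9% in those labelled LOVO and 6.80% and 4.08% in HCT116. The summed ligand level was 24.6, 41.1, 29.9 and 34.9 FPKM in HCT116 adherent cells, HCT116 spheroids, LOVO adherent cells and LOVO spheroids. The sum was thus higher in HCT116 spheroids than in HCT116 adherent cells. Between the lines the leading ligand differed more than the sum.

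The remaining genes of the list were low, and several were seen in 1 line only. FGF9, FGF14 and FGF23 exceeded the floor in both HCT116 libraries and neither LOVO library, and FGF10 and FGF12 did so in the libraries labelled LOVO. FGF9, a ligand of epithelial-mesenchymal exchange, had 50 reads in HCT116 adherent cells and 163 in HCT116 spheroids (0.54 and 2.14 FPKM), a 3.95-fold difference (2.86 to 5.54), and 0 reads in both LOVO libraries. FGF10, which mesenchymal cells make for the FGFR2 of neighbouring epithelium, had 0 reads in both HCT116 libraries, 253 in LOVO adherent cells and 102 in LOVO spheroids (4.69 and 1.68 FPKM). It was 2.78-fold lower in LOVO spheroids (2.20 to 3.54). FGF21, the other metabolic hormone of the FGF19 subfamily, was at 0.30, 0.05, 2.67 and 0.26 FPKM in HCT116 adherent cells, HCT116 spheroids, LOVO adherent cells and LOVO spheroids, from 8, 1, 63 and 7 reads. It was thus seen mainly in LOVO adherent cells. FGF18 was at 1.41 and 2.64 FPKM in adherent cells and spheroids of HCT116 and had 4 and 3 reads in LOVO, and FGF8 was at 1.64 and 1.87 FPKM in HCT116 with 0 and 4 reads in LOVO.

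The 4 signalling receptors were all more abundant in HCT116 than in the libraries labelled LOVO. Their summed level was 59.1 and 66.4 FPKM in adherent cells and spheroids of HCT116 and 12.3 and 26.5 FPKM in those of LOVO. Of the 8 members, 5 were lower in adherent LOVO than in HCT116 adherent cells by more than 1 on the log2(FPKM + 1) scale and 2 were higher (FGFBP1 and FGF2), where 16.4% and 17.4% of all genes compared were. In spheroids 4 were lower and 2 higher, where 15% and 17.7% of all genes were.

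FGFR4, the main receptor for FGF19, followed FGFBP1 in LOVO by the size of its log2(FPKM + 1) difference. It was at 22.9 FPKM in HCT116 adherent cells (2250 reads), 30.0 FPKM in HCT116 spheroids (2435 reads), 3.28 FPKM in LOVO adherent cells (284 reads) and 18.4 FPKM in LOVO spheroids (1785 reads). Adherent LOVO cells stood apart as the low library, and the other libraries lay within 18.4 to 30.0 FPKM. Spheroids held 5.60-fold the adherent level in LOVO (4.94 to 6.37) and 1.31-fold in HCT116 (1.24 to 1.39). On the log2(FPKM + 1) scale the difference was 2.18 in LOVO, which 200 genes exceeded, and 0.38 in HCT116. The excess of HCT116 over LOVO was 6.97-fold in adherent cells (6.16 to 7.91) and 1.63-fold in spheroids (1.54 to 1.74). FGFR4 lies on the plus strand of chromosome 5 from 177086886 to 177098144. KLB, the co-receptor it uses for FGF19, had 19, 7, 1 and 16 reads in HCT116 adherent cells, HCT116 spheroids, LOVO adherent cells and LOVO spheroids, and its relative KL had 0 reads in every library.

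FGFR2 went the other way. Epithelial cells usually make the splice form of FGFR2 that binds FGF10 and FGF7, and mesenchymal cells the form that binds FGF2, but a table of whole genes does not separate these forms. FGFR2 was at 8.02 FPKM in HCT116 adherent cells (1239 reads), 5.27 FPKM in HCT116 spheroids (671 reads), 0.758 FPKM in LOVO adherent cells (103 reads) and 0.0262 FPKM in LOVO spheroids (4 reads). It was therefore close to the floor in LOVO spheroids and highest in HCT116 adherent cells. Spheroids held 1.52-fold less than adherent cells in HCT116 (1.38 to 1.67) and 28.9-fold less in LOVO (10.9 to 108). On the log2(FPKM + 1) scale these low LOVO levels gave a difference of -0.78, and HCT116 gave -0.52. The gene lies on the minus strand of chromosome 10 from 121478334 to 121598458 with 27 annotated transcripts, 20 of them protein-coding.

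FGFR1 and FGFR3 hardly differed between growth forms. FGFR1 was at 11.6 FPKM in HCT116 adherent cells (3273 reads), 10.9 FPKM in HCT116 spheroids (2540 reads), 2.83 FPKM in LOVO adherent cells (702 reads) and 2.75 FPKM in LOVO spheroids (767 reads). FGFR3, on chromosome 4 from 1793293 to 1808872, was at 16.6 FPKM (1643 reads), 20.2 FPKM (1644 reads), 5.44 FPKM (473 reads) and 5.39 FPKM (526 reads) in the same order. For both receptors the lines were separated and the growth forms lay close together. FGFR1 was 0.941-fold the adherent level in HCT116 spheroids (0.894 to 0.992) and 0.974-fold in LOVO spheroids (0.878 to 1.08), and its direction changed with the scaling in both lines. FGFR3 was 1.21-fold in HCT116 (1.13 to 1.30) and 0.991-fold in LOVO (0.874 to 1.12), where its direction changed with the scaling too. HCT116 held 4.10-fold the FGFR1 of LOVO in adherent cells (3.78 to 4.46) and 3.97-fold in spheroids (3.66 to 4.31), and for FGFR3 the ratios were 3.06-fold (2.76 to 3.39) and 3.74-fold (3.39 to 4.14). A further 294 exonic bases of FGFR1 are shared with LETM2 and an antisense gene on the opposite strand.

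The make-up of the receptors differed accordingly. FGFR4 was 38.7% of the summed receptor FPKM in HCT116 adherent cells, 45.2% in HCT116 spheroids, 26.6% in LOVO adherent cells and 69.2% in LOVO spheroids. FGFR3 was 44.2% in LOVO adherent cells, where it led, and 20.3% in LOVO spheroids. FGFR2 made up 13.6% in HCT116 adherent cells, 7.94% in HCT116 spheroids, 6.16% in LOVO adherent cells and 0.0988% in LOVO spheroids. FGFRL1, a receptor-like protein without a kinase domain, was not counted in these sums and was at 30.3 and 21.4 FPKM in HCT116 and 6.67 and 8.86 FPKM in LOVO.

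FRS2, the adaptor beneath the receptors, varied least among libraries. It was at 4.69 FPKM in HCT116 adherent cells (693 reads), 5.18 FPKM in HCT116 spheroids (630 reads), 6.60 FPKM in LOVO adherent cells (857 reads) and 4.43 FPKM in LOVO spheroids (646 reads). The ratio of spheroids to adherent cells was 1.10 in HCT116 (0.989 to 1.23), an interval that includes 1, and LOVO spheroids were 1.49-fold lower (1.34 to 1.65). Among 10 receptor adaptors 0 differed by more than 1 in HCT116, with a median of 0.05 on the log2(FPKM + 1) scale, and 1 was lower and 0 higher in LOVO, with a median of -0.25. Over all genes compared, 5.52% differed by more than 1 in either direction in HCT116 and 16.4% in LOVO. The adaptor that was lower was PTPN11, which encodes the phosphatase SHP2, at 46.9 and 40.3 FPKM in HCT116 and 44.5 and 21.7 FPKM in LOVO. Its difference of -1.01 lay just past the threshold. PLCG1, a phospholipase that receptors bind directly, was at 7.93 and 16.4 FPKM in HCT116 and 7.53 and 8.95 FPKM in LOVO. Its difference of 0.96 in HCT116 lay just below the threshold and passed 1 in 4 of 7 settings of pseudocount and scaling.

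The pathway as a whole was read from 7 lists of 87 genes, FGF-binding proteins, ligands, receptors with co-receptors, adaptors, heparan sulfate proteoglycans, heparan sulfate enzymes, and ERK feedback with ETS factors, of which 56 genes had a mean of at least 1 FPKM. That mean runs over both lines. Genes without reads in 1 line, such as FGF10 in HCT116 or GPC3 and GPC4 in LOVO, were therefore counted in both. In HCT116 spheroids 4 of the 56 were higher by more than 1 (FGFBP1, GPC3, SULF2 and DUSP6) and 0 were lower, a share of 7.14% against 5.52% of all genes compared. Under a trimmed-mean scaling of the libraries the counts became 2 higher and 2 lower, the latter SDC4 and DUSP5, against 1.78% and 3.80% of all genes. In LOVO spheroids 11 were higher (FGFBP1, FGFR4, SDC4, GPC2, EXT2, GLCE, SPRY2, SPRY4, DUSP5, DUSP6 and ETV4) and 2 lower (FGF10 and PTPN11), a share of 23.2% against 16.4% of all genes. With library sizes taken from the reads on genes the LOVO counts became 13 higher and 0 lower, and the shares of all genes moved the same way, to 10.8% higher and 5.02% lower. FGFBP1 and DUSP6 were higher by more than 1 in both lines, as were 0.645% of all genes. Without the 8 members the counts were 3 higher and 0 lower in HCT116 and 9 higher and 2 lower in LOVO, of 48 genes, with medians of 0.18 and 0.27.

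The ERK feedback list was the one with the most genes past the threshold in LOVO. Of its 13 genes compared, 5 were higher by more than 1 in LOVO spheroids and 0 lower, where 8.57% and 7.85% of all genes were, and 1 was higher and 0 lower in HCT116, where 2.19% and 3.33% were. The median difference was 0.33 in HCT116 and 0.56 in LOVO, and the LOVO median was 1.09 with a pseudocount of 0.1 and 1.25 with FPKM rescaled to TPM, an equal total in each library. DUSP6, a phosphatase that inactivates ERK in the cytoplasm, was at 40.0 and 105 FPKM in adherent cells and spheroids of HCT116 and 0.87 and 6.78 FPKM in those of LOVO, ratios of 2.62-fold (2.52 to 2.73) and 7.82-fold (6.12 to 10.1). SPRY4, a Sprouty inhibitor of receptor signalling, was at 23.1 and 29.2 FPKM in HCT116 and 0.22 and 2.52 FPKM in LOVO. Its relative SPRY2 was at 2.86 and 3.27 FPKM in HCT116 and 8.94 and 19.1 FPKM in LOVO. Both Sprouty genes were thus higher in LOVO spheroids, from opposite starting levels relative to HCT116. DUSP5, which acts on ERK in the nucleus, went in opposite directions, at 163 and 81.3 FPKM in HCT116 and 4.01 and 15.2 FPKM in LOVO. ETV4, an ETS factor downstream of FGF signalling, was at 20.8 FPKM in both HCT116 libraries and at 4.36 and 16.0 FPKM in LOVO. The EGF and bFGF of the spheroid medium also feed this cascade, and their part was not tested.

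Genes of heparan sulfate, the store from which FGFBP1 releases FGFs, gave medians above 0 in both lines. The median log2(FPKM + 1) difference of 10 proteoglycans was 0.42 in HCT116 and 0.49 in LOVO, with 1 and 2 genes above 1, where 2.19% and 8.57% of all genes were. Without the filter on low genes the LOVO median was 0. GPC3 and GPC4 had 0 reads in both LOVO libraries and entered the filtered LOVO median as 0. Of 12 enzymes that build or trim the chains, 1 was above 1 in HCT116 and 2 in LOVO, with medians of 0.16 and 0.06. In LOVO 7 of these enzymes were higher and 5 lower in any amount, a count for which no share of all genes was computed. HS3ST1, among the higher, had only 0 and 4 reads there, and HS6ST2, among the lower, 1 and 0. No gene of either list was below -1 in either line. SDC4, a syndecan of the cell surface, was at 172 and 87.2 FPKM in HCT116 and 14.7 and 42.3 FPKM in LOVO, so it was lower in HCT116 spheroids and higher in LOVO spheroids. GPC3, a glypican, was at 1.99 and 5.16 FPKM in HCT116 with 0 reads in LOVO. SULF2, which removes sulfate from the chains outside the cell, was at 7.12 and 15.8 FPKM in HCT116 and 0.07 and 0.92 FPKM in LOVO. GLCE, which epimerises the chains, was at 11.1 and 18.0 FPKM in HCT116 and 4.84 and 16.0 FPKM in LOVO. EXT2, which elongates them, was at 19.3 and 17.5 FPKM in HCT116 and 18.4 and 39.3 FPKM in LOVO. AGRN, the matrix proteoglycan agrin, was at 16.1 and 21.4 FPKM in HCT116 and 91.7 and 122 FPKM in LOVO, which made it the list's most abundant gene there.

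**Figure D3:**
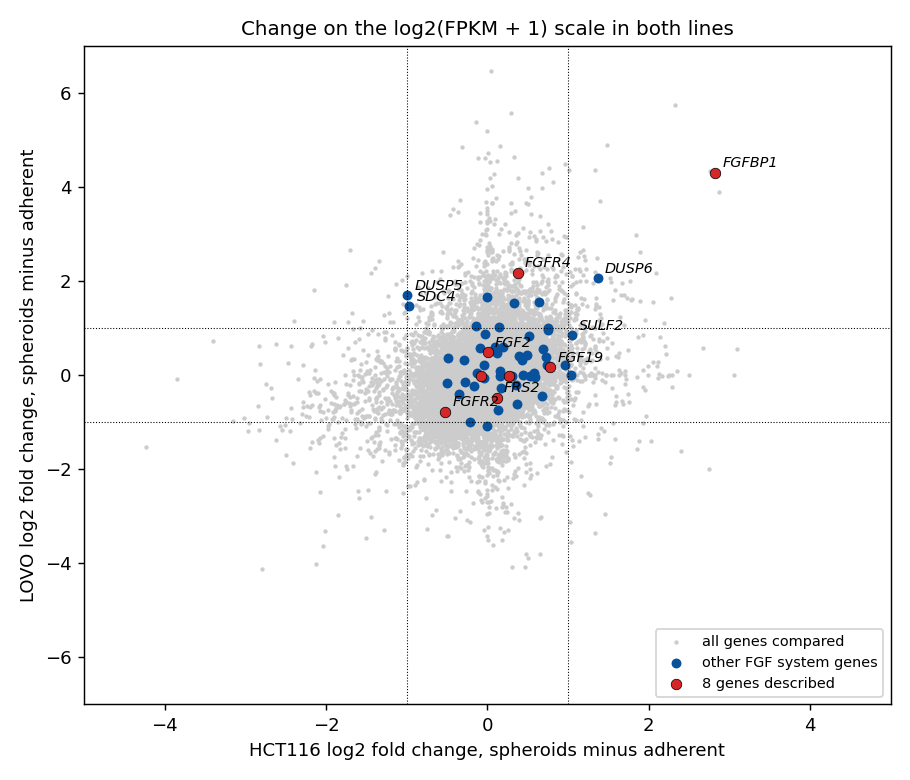
The log2(FPKM + 1) difference of spheroids minus adherent cells in HCT116 (horizontal axis) and LOVO (vertical axis), with all 14429 genes compared in grey, other genes of the FGF lists in blue and the 8 genes in red. FGFBP1 lies at 2.83 and 4.31, apart from the other genes of the FGF lists, DUSP6 lies above 1 on both axes, and SDC4 and DUSP5 lie left of 0 and above 1.

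AP-1 and C/EBP factors, a list added because AP-1 and C/EBP are known regulators of FGFBP1 transcription, differed between the lines. Of 12 such genes, 6 were lower by more than 1 in HCT116 spheroids and 0 higher, with a median of -1.03, where 3.33% and 2.19% of all genes compared were. In LOVO spheroids 2 were higher by more than 1 and 2 lower, with a median of 0.06, where 8.57% and 7.85% of all genes were. Counted in any amount, 6 were higher and 6 lower, and no share of all genes was computed for this count. The part of these factors in the level of FGFBP1 was not tested. FOS was at 52.9 and 6.62 FPKM in HCT116 and 8.13 and 9.70 FPKM in LOVO. JUNB was at 151 and 68.4 FPKM in HCT116 and 26.9 and 106 FPKM in LOVO. DDIT3, a C/EBP-related stress factor, was lower in both lines, at 189 and 9.11 FPKM in HCT116 and 36.1 and 11.9 FPKM in LOVO. CEBPD was at 2.77 and 1.67 FPKM in HCT116 and 29.2 and 68.7 FPKM in LOVO.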

How the data were processed

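Total RNA of 4 cultures, 1 library each, was sequenced after library preparation with a SMARTER mRNA kit. The authors deposited 1 FPKM value per gene and library with gene lengths and GRCh38 coordinates. The aligner and counter are not given in the sources used here, and the submitters' processing notes name the mouse builds GRCm38 and mm10, whereas all 58735 gene identifiers matched human GENCODE 29. FPKM times gene length gave whole multiples of 1 step per library for 100% of values above 0 (tolerance 0.001), so reads were recovered. The FPKM library sizes were 0.907 to 1.09 times the reads on genes.

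Differences were computed within each line, and between lines, as log2(FPKM + 1) with a pseudocount of 1, for genes whose mean FPKM over the libraries reached 1, of which there were 14429. A gene was counted when its difference passed 1. No test was run: each condition had 1 library, and the members were chosen on these values. Ratios of FPKM carry exact 95% Clopper-Pearson counting intervals, which were checked on simulated reads. Against 0 reads a floor of 3 reads per library was used. The members and gene lists were chosen with earlier results of these data known. Named genes were the members, list genes past the threshold (otherwise up to 3 of the highest mean FPKM), ligands with more than 3 reads, up to 3 genes nearest to a member in pattern, and genes sharing exons with a member. FGFBP2, FGFBP3, PROM1, KLB, KL, FGFRL1, PLCG1 and AGRN are given for their roles, chosen after their values were seen. Promoters came from RefSeq GRCh38.p14, where 6 of the 8 members matched (FGF19 and FGFR1 did not). Other pseudocounts, scalings, filters, thresholds and gene types were tried. Python 3.11.15, numpy 2.4.6, pandas 2.3.3, scipy 1.17.1 and matplotlib 3.10.9 were used.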

Additional observations from a re-analysis of the deposited data

Results flagged for a closer look

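None of the 8 members had opposite directions in the 2 lines beyond counting error, and 10 of the 41 genes named by rule did. The share over all genes compared was not computed, and many named genes were picked for a large difference. Nothing is therefore read from these counts. Each value here is the spheroid minus adherent difference on the log2(FPKM + 1) scale in LOVO less that in HCT116, and the difference between the lines was not tested, since each condition had 1 library. For genes lower in HCT116 spheroids and higher in LOVO spheroids it was 2.43 for SDC4, 1.19 for EXT2 and 2.69 for DUSP5. The AP-1 genes gave 3.05 for FOS, 2.21 for FOSB, 2.86 for FOSL1, 2.21 for JUN and 3.07 for JUNB, and CEBPD gave 1.70. COL1A1, a collagen gene of the fibroblast list, was higher in HCT116 spheroids and lower in LOVO spheroids, at -1.96.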

How the results depend on the processing

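No direction of a called value changed under any alternative tried, but these alternatives could hardly have changed one. Pseudocounts, filters and thresholds cannot reverse a direction. The scalings moved the median of all genes by at most 0.15, while a called value lay past 1. FGFBP1 stayed between 2.76 and 3.27 in HCT116 and between 4.31 and 4.57 in LOVO: it was 3.22 and 3.27 in HCT116 with pseudocounts of 0.1 and 0.01, and 4.57 as TPM and 4.51 with recovered-read library sizes in LOVO. Of the 56 FGF genes, the count above 1 in HCT116, 4 as reported, was 7 with a pseudocount of 0.01, 2 under trimmed-mean scaling, 1 at a threshold of 2 and 14 at 0.58, where the share of all genes, 2.19% as reported, was 6.49%, 1.78%, 0.201% and 8.20%. The count below -1 there, 0 as reported, was 1 with either pseudocount, 2 under trimmed-mean scaling and 2 at 0.58. The share of all genes below, 3.33% as reported, was 5.27% and 5.88% with the pseudocounts of 0.1 and 0.01, 3.80% and 10.4%. In LOVO the 11 above became 17 with a pseudocount of 0.01, 3 at a threshold of 2 and 17 at 0.58, where the share of all genes, 8.57% as reported, was 15.7%, 1.81% and 17.3%. The 2 below became 4 with a pseudocount of 0.01, 1 under trimmed-mean scaling, 1 with centring and 0 with recovered-read library sizes. The share of all genes below, 7.85% as reported, was 11.7%, 7.58%, 6.76% and 5.02% there. The count was 1 at a mean FPKM of at least 5, which leaves fewer FGF genes, 0 at a threshold of 2 and 5 at 0.58. In these settings the share of all genes was 10.2%, 0.943% and 21.3%. Among members only FGF2 in HCT116, FGFR1 in both lines and FGFR3 in LOVO changed sign between settings. FGFR2 in LOVO ran from -4.41 to -0.72, since 4 reads in LOVO spheroids leave the pseudocount to set it. TPM and recovered-read library sizes moved the median of all genes in LOVO by 0.15 and 0.14. The causes of the other changes were not tested. No pairing by replicate number could be made, since the labels carry none, and no replicate could be left out of conditions that had 1 library each. A fit with the 2 lines as blocks, which would leave 1 residual degree of freedom, was not run, because the genes were chosen on these values. A gene under 3 reads cannot be told from absent at this depth.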

Other observations

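FGF19 and genes on its stretch of chromosome 11 were compared between the lines. Of 8 with a mean of at least 1 FPKM, FGF19 included, 5 were lower and 3 higher in LOVO in any amount, in both growth forms. No share of all genes was computed for this count, and nothing is read from it. The median LOVO minus HCT116 difference over all genes compared was 0.07 in adherent cells and 0.04 in spheroids. By more than 1 on the log2(FPKM + 1) scale, 4 were lower in the libraries labelled LOVO and 0 higher, in both growth forms. Over all genes compared, 16.4% were lower and 17.4% higher in adherent cells, and 15% and 17.7% in spheroids. CCND1, the cyclin of the G1 phase, was at 158 and 121 FPKM in adherent cells and spheroids of HCT116 and 33.7 and 27.3 FPKM in those of LOVO. MYEOV was at 24.8 and 27.0 FPKM in HCT116 and 0.06 and 1.77 FPKM in LOVO, and ANO1, a chloride channel, at 4.45 and 5.58 FPKM in HCT116 with 0 reads in LOVO. FADD, an adaptor of death receptors, went the other way, at 7.94 and 7.99 FPKM in HCT116 and 12.8 and 12.6 FPKM in LOVO, as did CTTN, which encodes the actin-binding cortactin, at 26.4 and 36.6 FPKM and at 40.3 and 48.8 FPKM. Of these 8 genes, 0 differed by more than 1 on the log2(FPKM + 1) scale between HCT116 spheroids and adherent cells, and 1, MYEOV, was higher in LOVO spheroids. Over all genes compared, 5.52% differed by more than 1 in HCT116, and 8.57% were higher by more than 1 in LOVO spheroids.

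The genes nearest in pattern to the ligands shared their split between the lines, as a choice by smallest distance makes them. FGF2 lay nearest to CGAS, a sensor of cytosolic DNA, at a distance of 0.124, with 0 FPKM in both HCT116 libraries and 6.88 and 9.74 FPKM in LOVO. FGF19 lay nearest to AC090204.1 at 0.279, SYT1 at 0.288 and MSX2, a homeobox factor, at 0.302, and MSX2 was at 15.7 and 35.0 FPKM in HCT116 with 0 FPKM in LOVO. FGFR4 lay nearest to ZNF385A at 0.181. These distances run over 4 libraries and describe likeness of pattern only, since each gene was centred on its own mean.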
